A study of Mus musculus with 8 samples.

Results

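The 10 genes described here are 9 genes by which endothelial cells, the cells lining blood vessels, are commonly recognised (Pecam1, Cdh5, Kdr, Flt1, Tek, Tie1, Eng, Esam and Emcn) and Vegfa, the growth factor that endothelial cells respond to. They were picked out by gene symbol, with earlier results of these data known, and all 10 were among the 14012 genes of the count table. RNA came from quadriceps femoris (QF), a thigh muscle, of 4 Grpel1skm-/- mice and 4 Grpel1 flox/flox control mice. GRPEL1 is a co-chaperone that helps mitochondrial HSP70 pull proteins into the mitochondrial matrix. Both groups carried floxed Grpel1 alleles, and in the knockout group a Cre recombinase driven by the human skeletal actin promoter and switched on by tamoxifen injections, begun a few weeks after birth, removes the gene in muscle fibres. Endothelial cells are therefore not a target of this Cre, and none of the 10 genes was targeted. The labels do not say whether the sequenced controls received tamoxifen or carried Cre. Each library was made from 1 mouse.

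Skeletal muscle is threaded by capillaries that run along its fibres. VEGF-A, the product of Vegfa, is secreted by muscle fibres and other cells and acts on KDR (VEGFR2), the main signalling receptor of endothelial cells, while FLT1 (VEGFR1) binds it tightly and in its soluble form holds it back. A second pathway joins the angiopoietins to the receptor TEK (TIE2) and its partner TIE1, and ENG (endoglin) is a co-receptor for ligands of the TGF-beta family. CDH5 (VE-cadherin), PECAM1 and ESAM hold endothelial cells together at their junctions, and EMCN (endomucin) is a sialomucin on the luminal side of capillaries and veins.

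Libraries held 16017565 to 20361144 counts each. TMM scaling, which sets libraries to a common level so that most genes are near no change, gave factors of 0.747 to 0.844 in the controls against 1.19 to 1.33 in the knockouts. A set of 7 abundant muscle fibre genes made up 180700 to 230000 CPM, the counts of a gene relative to the scaled library size, in the controls against 59530 to 86140 in the knockouts, so the choice of scaling bears on every value below and its effect on the 10 genes is given after them. Under TMM the log2 fold change over all genes had a median of 0.07. Counts over the whole Grpel1 gene did not check the labels, with means of 68.4 ± 3.04 CPM (SD, n = 4) in the controls and 65.3 ± 6.11 CPM in the knockouts. All 9 endothelial genes were detected in every library with at least 122 counts.

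Many endothelial promoters are held active by factors of the ETS family, ERG among them, which bind sites with a GGAA core. The 150 bases before the RefSeq start of 5 of the genes are printed to show this core in the receptor genes and in Vegfa, which is not restricted to endothelial cells. Vegfa held 3 matches there, against 2 each in Kdr, Tek and Eng and 4 in Flt1. Sequences are on the gene's own strand in GRCm38.p6, 5′ to 3′, and capitals mark GGAA or its reverse complement TTCC.
Kdr (chr5:75978456-75978605, minus strand): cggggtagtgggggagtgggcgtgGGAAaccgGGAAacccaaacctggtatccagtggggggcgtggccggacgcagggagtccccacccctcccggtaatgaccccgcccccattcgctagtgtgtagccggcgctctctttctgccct
Flt1 (chr5:147726012-147726161, minus strand): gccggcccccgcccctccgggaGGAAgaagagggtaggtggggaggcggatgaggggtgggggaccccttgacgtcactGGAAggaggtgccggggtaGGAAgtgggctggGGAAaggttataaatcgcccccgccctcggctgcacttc
Tek (chr4:94739139-94739288, plus strand): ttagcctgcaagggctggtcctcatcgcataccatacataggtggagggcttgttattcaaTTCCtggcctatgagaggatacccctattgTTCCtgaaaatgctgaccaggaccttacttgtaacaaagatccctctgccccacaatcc
Eng (chr2:32646445-32646594, plus strand): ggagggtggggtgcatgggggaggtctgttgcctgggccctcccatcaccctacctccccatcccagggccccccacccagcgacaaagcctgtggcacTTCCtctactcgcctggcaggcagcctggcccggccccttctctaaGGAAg
Vegfa (chr17:46032378-46032527, minus strand): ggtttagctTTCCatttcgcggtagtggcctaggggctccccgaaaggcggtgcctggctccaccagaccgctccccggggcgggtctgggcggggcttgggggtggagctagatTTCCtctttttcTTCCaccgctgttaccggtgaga
The core was found in the 250 bases before the start of 7 of the 7 members with a RefSeq promoter entry. Of all 27025 promoters of this length, 93.4% held it on either strand, so its presence does not set these genes apart. The longer CAGGAA, which contains the core, was found in 4 of the 7 (Tek, Tie1, Emcn and Vegfa) and in 25.4% of all promoters. For the cores that hypoxia-inducible factors bind, ACGTG was found in 0 of the 7 members and in 16.6% of all promoters, and GCGTG in 3 of the 7 (Kdr, Flt1 and Emcn) and in 28.2%. Bases farther than 250 before the start were not searched, so 0 matches does not mean that a gene lacks such sites. TGACGTCA, the cyclic AMP element, was found in Flt1 and in 1.62% of all promoters.

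At an adjusted p under 0.01 in edgeR's quasi-likelihood test (Benjamini-Hochberg over all genes) on TMM-scaled counts, 6 of the 9 endothelial genes were lower in knockout muscle and 0 were higher, and with library totals alone 0 of the 9 were called in either direction (0 lower and 1 higher, Flt1, at an unadjusted p under 0.05). Over all genes 44.7% were called, 21.1% lower and 23.6% higher. Of the 9, 9 were lower and 0 higher at an unadjusted p under 0.05, where 29.4% of all genes were lower and 34.2% higher, and DESeq2 called 9 lower and 0 higher, against 24.8% lower and 23.2% higher over all genes. Their median log2 fold change under TMM was -0.66, against 0.07 for all genes. For 7 of the 9, no knockout library reached the lowest control, as was so for 24.4% of all genes. Vegfa was also called lower under TMM, at -0.36, and was called higher with library totals alone, at 0.31. In RNA from whole muscle, fewer endothelial cells, less RNA of these genes per cell and more RNA of other genes cannot be told apart.

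**Figure D1:**
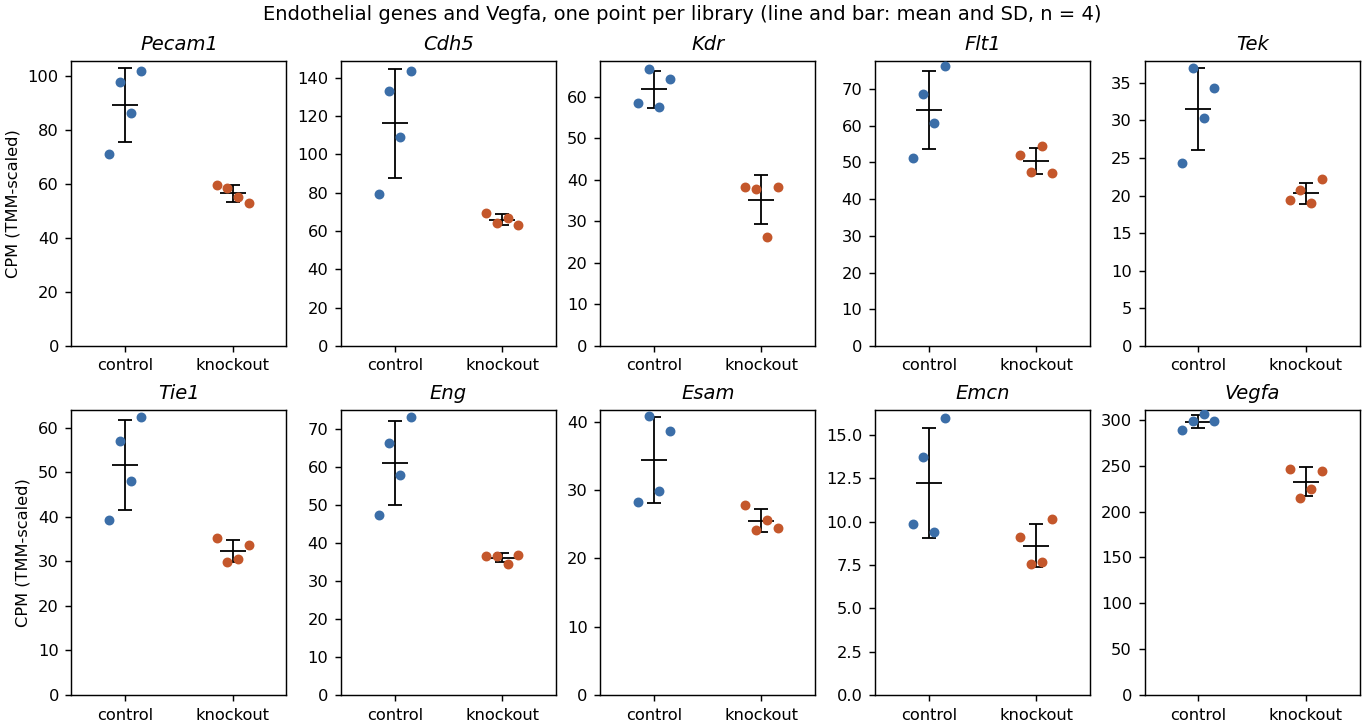
CPM on TMM-scaled library sizes (vertical axes from 0, each on its own range) of the 10 genes in the 4 control and 4 knockout libraries, with 1 point per library and the mean and SD. On this scale the groups are apart for all genes but Flt1 and Emcn, a separation that library totals alone did not give for the endothelial genes, and Vegfa lies between 288 and 306 CPM in the controls with little spread.

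Kdr, the main VEGF receptor (chr5:75933265-75978428, minus strand, GRCm38), was at 58.7, 66.6, 57.5 and 64.4 CPM in control libraries 1 to 4 and at 38.2, 37.9, 26.3 and 38.3 CPM in knockout libraries 1 to 4. The groups did not overlap, and knockout library 3 lay below the other knockouts. The log2 fold change was -0.81 (SE 0.12, adjusted p = 0.000251). Flt1, the high-affinity receptor on the same chromosome (chr5:147562196-147725988, minus strand), was at 51.3, 68.7, 60.8 and 76.2 CPM in the controls against 52.0, 47.5, 54.4 and 47.2 CPM in the knockouts. Control library 1 lay within the knockout range. Its log2 fold change of -0.35 (SE 0.115, 95% interval -0.58 to -0.13) had an adjusted p of 0.0223 and was not called. The adjusted p of Flt1 ran from 0.00304 to 0.0637 over the alternatives, and DESeq2, or leaving out control library 1, brought it under 0.01. The counts cover the gene as a whole, so membrane-bound and soluble FLT1 are not separated.

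Ratios of raw counts within a library need no scaling between libraries. There were 1.14, 0.970, 0.946 and 0.845 counts of Kdr for each count of Flt1 in the controls, and 0.735, 0.799, 0.484 and 0.811 in the knockouts. All 4 knockout libraries were below all 4 controls, an order that no scaling changes. The mean ratio was 0.976 ± 0.124 (SD, n = 4) in the controls and 0.707 ± 0.153 in the knockouts.

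Tek, the angiopoietin receptor (chr4:94739289-94874976, plus strand), was at 24.4, 37.0, 30.3 and 34.3 CPM in the controls against 19.5, 20.7, 19.03 and 22.1 CPM in the knockouts. The groups did not overlap, with control library 1 nearest to the knockouts. The log2 fold change was -0.63 (SE 0.121, adjusted p = 0.0013). For Tie1, its partner receptor (chr4:118471191-118489849, minus strand), the controls had 39.4, 57.1, 48.0 and 62.4 CPM and the knockouts 35.4, 29.9, 30.6 and 33.6 CPM. Again no knockout library reached the lowest control. The log2 fold change of Tie1 was -0.68 (SE 0.132, adjusted p = 0.00144). The pair kept a similar balance, with 0.612 ± 0.0429 counts of Tek per count of Tie1 in the controls (SD, n = 4) and 0.631 ± 0.0606 in the knockouts, and overlapping groups.

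Eng, the TGF-beta co-receptor (chr2:32646595-32682669, plus strand), was at 47.5, 66.4, 57.9 and 73.2 CPM in the controls against 36.7, 36.7, 34.6 and 36.9 CPM in the knockouts. The knockout libraries were close to each other, and each was below the lowest control. The log2 fold change was -0.76 (SE 0.118, adjusted p = 0.00034). The end of Eng overlaps that of Fpgs, on the other strand, by 61 bases, and whether the counting used strand is not given in the sources used here.

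Among the junction genes, Cdh5 (chr8:104101625-104144502, plus strand) had 79.3, 133, 109 and 143 CPM in the controls against 69.5, 64.1, 66.5 and 63.0 CPM in the knockouts. The controls were widely spread and the knockouts narrow, with no overlap. Cdh5 had the most negative log2 fold change of the 10, -0.82 (SE 0.156, adjusted p = 0.00127), and only 11.6% of all genes had a lower one. Pecam1 (chr11:106654213-106715281, minus strand) was at 71.1, 97.8, 86.2 and 102 CPM in the controls against 59.4, 58.3, 55.3 and 52.7 CPM in the knockouts. Here too every knockout library was below every control. The log2 fold change of Pecam1 was -0.66 (SE 0.108, adjusted p = 0.00047).

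Esam and Emcn missed the threshold. Esam, a junctional adhesion molecule of the immunoglobulin family (chr9:37528089-37538319, plus strand), was at 28.2, 40.8, 29.9 and 38.6 CPM in the controls against 27.9, 24.1, 25.6 and 24.5 CPM in the knockouts. The groups were apart by a narrow margin, between control library 1 and knockout library 1. Its log2 fold change was -0.43 (SE 0.122, 95% interval -0.67 to -0.19, adjusted p = 0.0115), and the adjusted p ran from 0.0014 to 0.175 over the alternatives. Emcn, the luminal sialomucin and the lowest of the 10 in counts (chr3:137341078-137431069, plus strand), was at 9.86, 13.7, 9.38 and 16 CPM in the controls against 9.09, 7.56, 7.68 and 10.1 CPM in the knockouts. The groups overlapped. Its log2 fold change of -0.51 (SE 0.182, 95% interval -0.87 to -0.15) had an adjusted p of 0.0341, with a range of 0.00989 to 0.548 over the alternatives.

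Vegfa, the ligand (chr17:46016993-46032377, minus strand), was at 288, 299, 306 and 299 CPM in the controls against 247, 214, 225 and 244 CPM in the knockouts. Every knockout library was below every control. The log2 fold change was -0.36 (SE 0.0698, adjusted p = 0.00149), about the size of that of Flt1, and 27% of all genes had a lower one. Between mice Vegfa varied least of the 10 genes in the controls, with a coefficient of variation of 2.42%, against 7.13% for Kdr and 15.4% to 26% for the other 8. In the knockouts the coefficient of Vegfa was 6.7%, above those of Eng, Cdh5, Pecam1 and Esam and below those of Tek, Flt1, Tie1, Emcn and Kdr. As a share of all counts in a library, however, Vegfa was higher in the knockouts, at 0.0303%, 0.0285%, 0.0268% and 0.0318% against 0.0223%, 0.0243%, 0.0229% and 0.0252% in the controls. That order, too, held without overlap.

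Summed, the 9 endothelial genes made up 0.0317%, 0.0472%, 0.0366% and 0.0515% of all counts in control libraries 1 to 4 and 0.0427%, 0.0435%, 0.0381% and 0.0428% in knockout libraries 1 to 4. The means were the same to 3 digits, 0.0417% in each group, and the knockouts lay inside the control range. On TMM-scaled library sizes the same sums were 410, 581, 489 and 610 CPM in the controls against 348, 327, 320 and 329 CPM in the knockouts, with no overlap. The lower level of endothelial genes was therefore a level relative to the bulk of other genes, and was not a smaller share of the counted reads. With library totals alone the median over all 14012 genes moved from 0.07 to 0.73, and 60.6% of genes were called higher and 6.23% lower.

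A change of scaling shifts all genes by about the same amount, so the distance of a gene from the median of all genes is nearly fixed by construction and is given here as a value that does not rest on the scaling. Cdh5 lay 0.89 below that median under TMM and 0.90 below it with library totals alone. For Kdr the difference from the median was -0.88 and -0.87, for Flt1 -0.42 and -0.43, and for Vegfa -0.42 and -0.42. RLE and upper-quartile factors gave -0.71 and -0.63 for Pecam1, close to its -0.66 under TMM. Before subtracting the median, library totals alone gave log2 fold changes from -0.16 (Cdh5) to 0.30 (Flt1) for the endothelial genes, of which none was called, and 0.31 for Vegfa (adjusted p = 0.00302). The adjusted p of Vegfa over all alternatives ran from 1.12e-08 to 0.0062, with the sign turning only there.

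**Figure D2:**
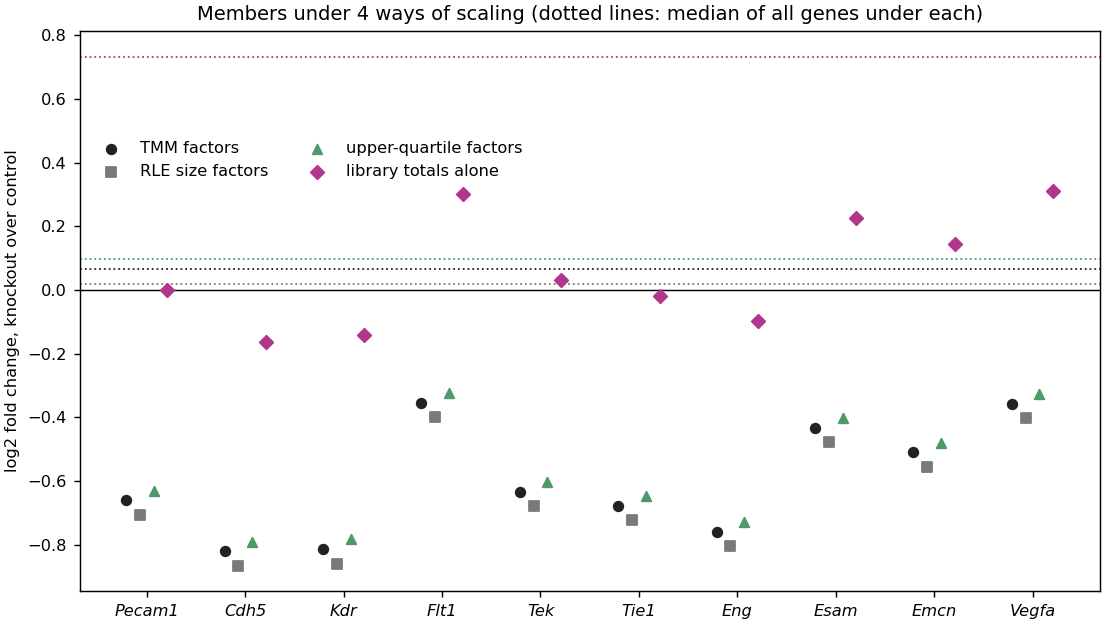
Log2 fold change of knockout over control (vertical axis) of the 10 genes under 4 ways of scaling libraries, with dotted lines at the median of all genes under each. TMM, RLE and upper-quartile factors put all 10 genes below 0, while library totals alone put Vegfa at 0.31 and the endothelial genes around 0, with the line for all genes at 0.73 above them.

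The make-up of the endothelial signal, as the share of each gene in the counts of the 9, also needs no scaling. Flt1 took 12.5%, 11.8%, 12.4% and 12.5% of these counts in the controls against 14.96%, 14.5%, 17.01% and 14.4% in the knockouts. All knockouts were above all controls, as they were for Esam, at 6.59% ± 0.436 (SD, n = 4) in the controls and 7.71% ± 0.34 in the knockouts. Eng went the other way, at 11.7% ± 0.249 and 10.96% ± 0.342, without overlap. The shares of Pecam1, Cdh5, Kdr, Tek, Tie1 and Emcn overlapped between the groups, Pecam1 with means of 17.1% in each. The largest share belonged to Cdh5, at 21.99% ± 1.83 in the controls and 19.9% ± 0.681 in the knockouts.

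**Figure D3:**
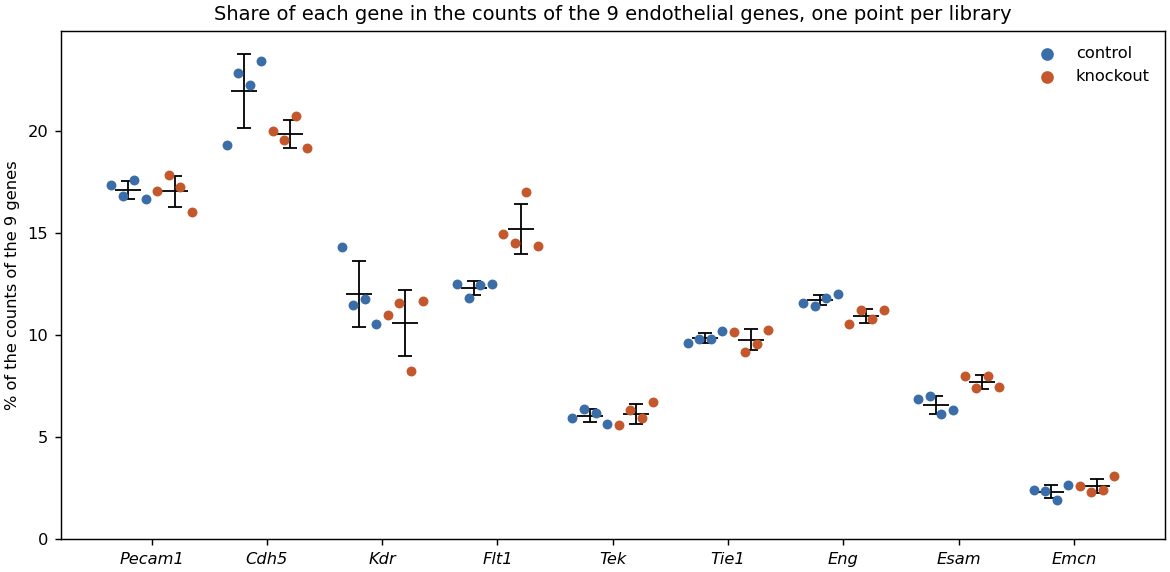
Percent of the summed raw counts of the 9 endothelial genes that each gene took (vertical axis), with 1 point per library and the mean and SD of the 4 controls and 4 knockouts. Flt1 took 12.3% in the controls and 15.2% in the knockouts and Esam 6.59% and 7.71%, with the groups apart, and most other shares overlapped.

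Set against its receptors, Vegfa had 4.92, 4.48, 5.32 and 4.64 counts per count of Kdr in the controls against 6.46, 5.65, 8.54 and 6.38 in the knockouts. Every knockout ratio was above every control ratio, and knockout library 3, low in Kdr, had the highest. Per count of Flt1 the Vegfa counts were 4.73 ± 0.750 in the controls (SD, n = 4) and 4.64 ± 0.436 in the knockouts, and the groups overlapped. Against the sum of the 9 endothelial genes the ratio was 0.583 ± 0.0998 and 0.703 ± 0.0363, also overlapping.

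**Figure D4:**
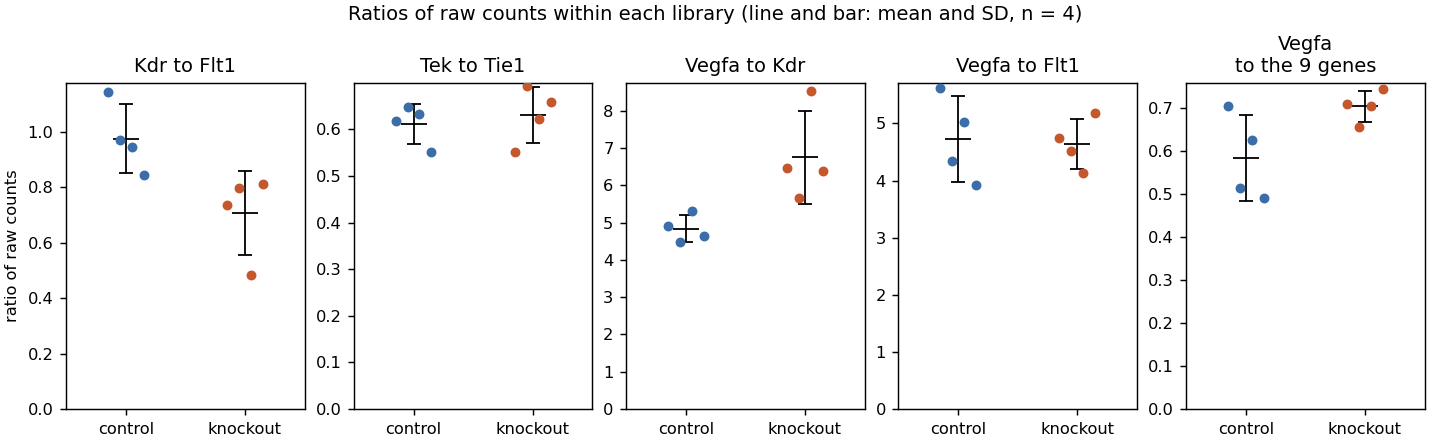
Ratios of raw counts within each library (vertical axes from 0), with 1 point per library and the mean and SD of each group of 4. Kdr to Flt1 was lower (mean 0.976 to 0.707) and Vegfa to Kdr higher (4.84 to 6.76) in the knockouts without overlap, and the other 3 ratios overlapped.

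Per kilobase of exon and on TMM-scaled library sizes, Vegfa was the most abundant of the 10, at 71.4 ± 1.73 CPM per kb in the controls (SD, n = 4) and 55.7 ± 3.73 in the knockouts. Among the endothelial genes the order in the controls was Cdh5 (29.1), Pecam1 (26.8), Esam (18.4), Eng (17.1), Tie1 (13.3), Kdr (11.3), Flt1 (10.2), Emcn (8.38) and Tek (6.70 CPM per kb). Every endothelial gene overlapped with the next in this order. Knockout levels were narrower except for Vegfa and Kdr, the latter with an SD of 1.08 against 0.808 CPM per kb in the controls. The order of the endothelial genes in the knockouts was Pecam1, Cdh5, Esam, Eng, Tie1, Flt1, Kdr, Emcn and Tek, from 16.9 down to 4.32 CPM per kb. There Pecam1 and Cdh5, Tie1 and Flt1, and Kdr and Emcn overlapped, while the other neighbours did not. Compared with the controls, Flt1 and Kdr had changed places, as had Pecam1 and Cdh5, and both pairs overlapped in the controls.

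The endothelial genes tended to vary together over the 8 libraries, mostly through the controls. Once each gene's group mean was removed, the Pearson correlation of log2 CPM over the 8 libraries had a median of 0.828 over the 36 pairs, from -0.02 to 0.97. Vegfa followed them less, with correlations of 0.127 to 0.490. These libraries share the dissected muscle and its scaling, and the values are a description. The mean deviation of the 9 genes ran from -0.31 to 0.24 on the log2 scale over the controls but only from -0.08 to 0.07 over the knockouts. Among the knockouts some genes went opposite ways, such as Kdr, lowest in library 3, and Flt1, highest there. Control library 1 was lowest among the controls for 7 of the 9 genes. Coefficients of variation in the controls were 7.13% for Kdr and 15.4% to 26% for the other endothelial genes, and in the knockouts 16.8% for Kdr, 14.3% for Emcn and 3.02% to 7.93% for the rest.

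By the same measure the genes most like the mean of the 9, among 11038 genes searched over 8 libraries, were Fnbp1 (r = 0.987), Erg (0.980), Ilvbl (0.979), Myo1d (0.975) and B4galt2 (0.975). Erg, the ETS factor named above, is one of the 24 other endothelial genes examined. Its log2 fold change in edgeR under TMM was -0.44 (adjusted p = 0.0369, not called), while Fnbp1 was called higher, at 0.73 (adjusted p = 0.000141). Of the 50 genes most like the mean, 3 were among these 24. Of the 23 of these that could be searched the median r was 0.719, against -0.103 for all genes, and 9 of the 23 were among the 552 genes most like the members. The genes most like Vegfa were Josd1 (0.969), Mcfd2 (0.968), Unc119 (0.963), Hint2 (0.962) and Ppm1k (0.956).

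A wider list of 24 endothelial genes that are not among the 10 had a median log2 fold change of -0.60 under TMM and 0.06 with library totals alone. For this and every later list, the shares called over all genes were 21.1% lower and 23.6% higher by edgeR under TMM. With library totals alone they were 6.23% lower and 60.6% higher. At an unadjusted p under 0.05 under TMM they were 29.4% and 34.2%, and by DESeq2 24.8% and 23.2%. Of the 24, 12 were called lower and 0 higher by edgeR under TMM (19 lower and 0 higher at an unadjusted p under 0.05, and 17 lower and 0 higher by DESeq2), and with library totals alone 0 were called in either direction (0 lower and 3 higher unadjusted). All 24 had a negative log2 fold change under TMM. For 10 of them the groups did not overlap, as was so, with the knockouts lower, for 24.4% of all genes. Vwf, the von Willebrand factor that endothelial cells store and release, had the lowest value, at -0.81 (SE 0.0917, adjusted p = 4.16e-05), from 40.0 ± 3.29 to 22.8 ± 2.41 CPM (SD, n = 4). Clec14a, a C-type lectin of endothelial cells, had the value nearest 0, at -0.24 (SE 0.168, adjusted p = 0.241). The count called in this list depended on single libraries, with 19 without control library 1, 7 without control library 3 and 6 without control library 4.

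The other ligands and receptors of the VEGF and angiopoietin families did not move as one. Of 9 measured, 4 were called lower and 0 higher by edgeR under TMM, with 6 lower and 1 higher at an unadjusted p under 0.05 and 4 lower and 0 higher by DESeq2. With library totals alone, 1 was called lower and 2 higher. Angpt4 was not analysed here. Angpt1, the angiopoietin that activates TEK, fell by 1.61 on the log2 scale (SE 0.243, adjusted p = 0.000276), from 15.5 ± 3.43 to 5.07 ± 1.53 CPM (SD, n = 4), with no overlap between groups. It was the one gene of the 2 families called lower with library totals alone as well, at -0.94 (adjusted p = 0.0089, the highest over its alternatives, which began at 4.3e-11).

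Angpt2, the angiopoietin that can block TEK, had -0.65 (SE 0.223, adjusted p = 0.0297) and was not called, with groups that did not overlap. Vegfb, a FLT1 ligand abundant in muscle, was called lower under TMM at -0.62 (SE 0.0765, adjusted p = 7.72e-05) and had 0.05 with library totals alone. Vegfc, a lymphatic growth factor, was called at -1.18 (SE 0.212, adjusted p = 0.000886), at 22 to 51 counts per library. Its receptor Flt4 was called at -0.51 (SE 0.138, adjusted p = 0.00912) with overlapping groups, and lost the call when any of 6 of the 8 libraries was left out, namely controls 2, 3 and 4 and knockouts 2, 3 and 4. The lowest value of this adjusted p over all alternatives was 0.00125 and the highest 0.38.

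Neither neuropilin, the co-receptors that VEGF-A shares with semaphorins, was called in the fit of all 8 libraries under TMM with the label as the only term. Nrp1 had -0.30 (SE 0.119, adjusted p = 0.0489). Nrp2 had 0.50 (SE 0.178, adjusted p = 0.0336), and was called higher, among other alternatives, with library totals alone and when control library 4 was left out, with adjusted p from 0.000545 to 0.167 over the alternatives. Vegfd, another lymphatic factor, had 0.46 (SE 0.228, adjusted p = 0.105) and Pgf, the placental growth factor that binds FLT1, had -0.74 (SE 0.383, adjusted p = 0.122), at 12 to 40 counts per library. Like Nrp2, Vegfd was called higher with library totals alone, at 1.14 (adjusted p = 0.00227, with up to 0.332 under other alternatives).

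Of 8 genes of endothelial Notch signalling, which restrains sprouting, 2 were called lower and 0 higher by edgeR under TMM, and 0 in either direction with library totals alone (0 lower and 2 higher unadjusted). At an unadjusted p under 0.05, 3 were lower and 0 higher, and DESeq2 called 3 lower and 0 higher. Notch4, a receptor largely found in endothelium, had -0.81 (SE 0.188, adjusted p = 0.00407), with overlapping groups. This call was lost when control 2 or 4 or knockout 1, 2 or 4 was left out, with adjusted p up to 0.0169 in those fits and from 7.25e-05 to 0.485 over all alternatives. Notch1, at -0.02 (SE 0.174, adjusted p = 0.936), was not called. Of 5 genes of activated endothelium measured, 1 was called higher under TMM and 0 lower (1 lower and 2 higher at an unadjusted p under 0.05, and 0 lower and 1 higher by DESeq2), and 3 higher and 0 lower with library totals alone, which moved the list's median from -0.01 to 0.66. Over all genes, 21.1% were called lower and 23.6% higher under TMM, and 60.6% higher with library totals alone. The 2 of 8 Notch genes and the 1 and 3 of these 5 were near those shares. The 1 called under TMM was Vcam1, an adhesion molecule for leukocytes, at 0.93 (SE 0.169, adjusted p = 0.000952), from 4.55 ± 0.454 to 8.72 ± 1.85 CPM.

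Genes that sense oxygen and that are known to control Vegfa changed in both directions. Of 8 oxygen sensing genes, 4 were called lower and 2 higher under TMM, and 3 lower and 4 higher with library totals alone. Egln1, the main prolyl hydroxylase that marks HIF for degradation, fell by 1.24 on the log2 scale (SE 0.0745, adjusted p = 7.93e-07). Egln3, a related hydroxylase, rose by 2.21 (SE 0.143, adjusted p = 1.19e-06), from 23.2 ± 5.08 to 107.7 ± 9.33 CPM. Among genes chosen after their values were seen, Hif1a, the oxygen-regulated HIF subunit, rose by 0.79 (SE 0.0698, adjusted p = 8.11e-06), and by 1.46 with library totals alone. Epas1, the HIF subunit prominent in endothelium, had -0.43 under TMM (SE 0.101, adjusted p = 0.00417) and 0.23 with library totals alone, where it was not called.

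Of 12 genes that respond to hypoxia, 6 were called lower and 1 higher under TMM, with a median log2 fold change of -0.87, and 5 lower and 4 higher with library totals alone, with a median of -0.19. Pfkfb3, a regulator of glycolysis in muscle and in sprouting endothelium, fell by 2.94 (SE 0.284, adjusted p = 1.43e-05). Slc2a1, the glucose transporter GLUT1, rose by 2.18 (SE 0.122, adjusted p = 5.77e-07). Of 6 other regulators of Vegfa, 2 were called lower and 3 higher under TMM, and 0 lower and 4 higher with library totals alone. On that last scaling 60.6% of all genes were called higher, so the 4 of 6 do not set this list apart. Esrra, the nuclear receptor that works with PGC-1alpha on Vegfa, had -0.85 (SE 0.0733, adjusted p = 7.02e-06) and -0.18 with library totals alone, where it was not called. Ern1, the endoplasmic reticulum stress sensor IRE1, rose by 2.39 (SE 0.137, adjusted p = 6.28e-07). Ppargc1a, which encodes PGC-1alpha and was named after its values were seen, had -0.54 under TMM (SE 0.144, adjusted p = 0.00905) with overlapping groups, and 0.13 with library totals alone.

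Of 7 angiogenesis inhibitors, 2 were called lower and 1 higher under TMM, and 0 lower and 1 higher with library totals alone. Serpinf1, which encodes PEDF, had -1.33 (SE 0.201, adjusted p = 0.00029) and -0.66 with library totals alone, where it was not called. Vash1, an inhibitor made by endothelial cells, had 0.93 (SE 0.242, adjusted p = 0.0075), and lost its call when control 2 or 3 or any single knockout library was left out, with an adjusted p of up to 0.022 in those fits and from 0.000424 to 0.0431 over all alternatives.

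**Figure D5:**
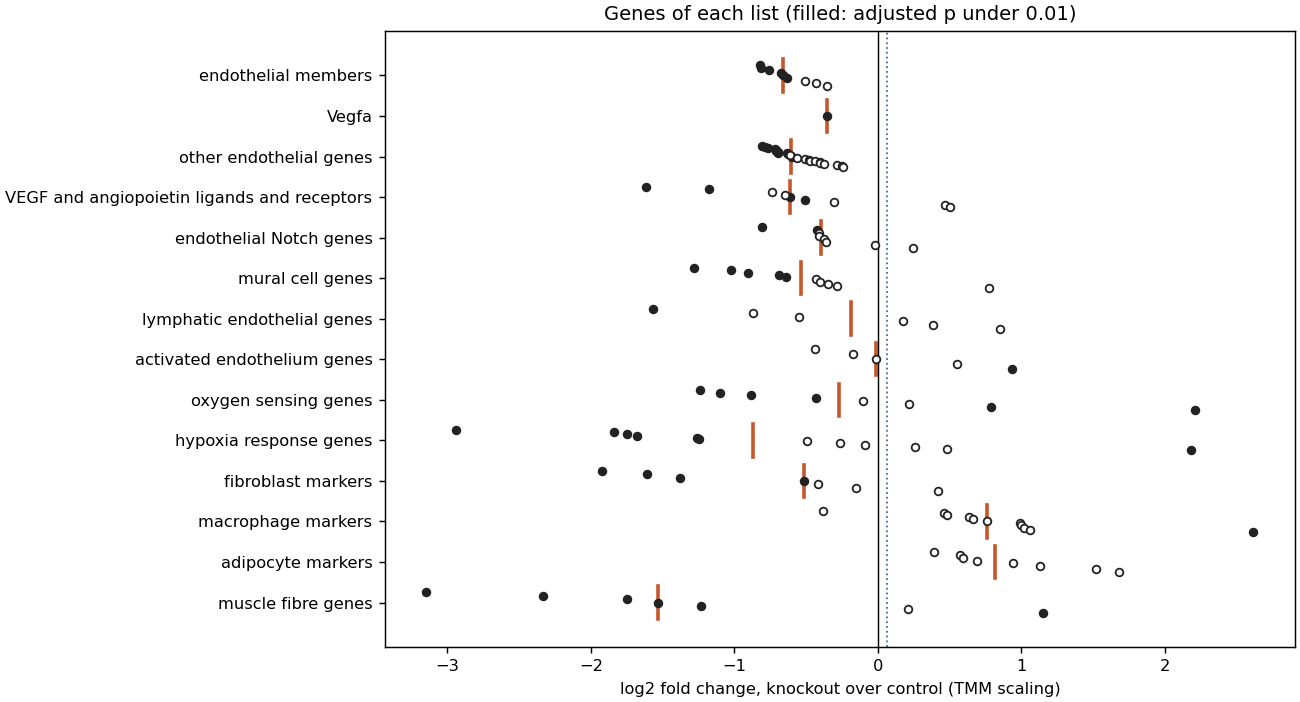
Log2 fold change under TMM scaling (horizontal axis) of the 9 endothelial genes, Vegfa and the genes of 12 other lists. Filled points are genes with an adjusted p under 0.01, red bars are list medians and the dotted line is the median of all genes, 0.07. The medians of the endothelial and mural lists lie left of it on this scale, with single genes such as Vcam1 and Cspg4 to its right, and library totals alone would put the endothelial median at 0.00066 with the median of all genes at 0.73.

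Markers of other cells in the muscle are given beside these values, and their part in the results was not tested. Mural cells, the pericytes and smooth muscle around vessels, had 10 genes measured, of which 5 were called lower and 0 higher under TMM (7 lower and 1 higher at an unadjusted p under 0.05, and 6 lower and 1 higher by DESeq2), and 0 lower and 1 higher with library totals alone. Their summed level was 734 to 986 CPM in the controls against 539 to 593 CPM in the knockouts. Myh11, smooth muscle myosin, had -1.02 (SE 0.145, adjusted p = 0.000185). Cspg4, the pericyte proteoglycan NG2, had 0.77 (SE 0.246, adjusted p = 0.0211) and was called higher, among other alternatives, with library totals alone, by DESeq2 and without control library 4, with adjusted p from 0.00124 to 0.0682 over the alternatives. Of 6 lymphatic genes 1 was called lower under TMM (Mmrn1, a gene named after its values were seen, at -1.57), and Reln had -0.55 and Pdpn 0.38, neither called. With library totals alone 1 was called lower and 2 higher, Pdpn (1.06) and Prox1 (1.49, also named after its values were seen), with a median of 0.49 against -0.19 under TMM. Their summed level was 22.3 to 26.5 CPM and 19.2 to 31.1 CPM.

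Among the other marker lists, 4 of 7 fibroblast genes were called lower and 0 higher under TMM (4 lower and 1 higher at an unadjusted p under 0.05, and 4 lower and 0 higher by DESeq2), at 1676 to 2536 CPM summed in the controls against 668 to 1028 CPM in the knockouts, led by Col1a1 at -1.92 (SE 0.272, adjusted p = 0.000182). With library totals alone, 1 of the 7 was called lower and 1 higher. Of 11 macrophage markers 1 was called higher and 0 lower under TMM (5 higher and 0 lower unadjusted, and 3 higher and 0 lower by DESeq2), at 65.6 to 175 CPM and 138 to 259 CPM summed, and 8 higher with library totals alone. The 1 called under TMM was Cd68, at 2.62 (SE 0.273, adjusted p = 2.39e-05). Over all genes, library totals alone called 60.6% higher. Of 8 adipocyte markers 0 were called in either direction under TMM by edgeR or by DESeq2, with 2 higher and 0 lower at an unadjusted p under 0.05, and with library totals alone 1 was called higher (Pparg, named after its values were seen, at 1.78). Their sum ran from 253 CPM in control library 3 to 1506 CPM in the controls and from 721 CPM in knockout library 3 to 2621 CPM in the knockouts. Without these 2 libraries, lowest in their groups, 6 of the 9 endothelial genes were called lower under TMM, as with all 8. Red blood cell markers summed to 41.1 to 102 CPM and 8.61 to 96.7 CPM. No gene of these lists was at 0 in any library.

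Among the remaining genes taken from these lists, those not called under TMM were Lum at 0.42 among the fibroblast genes, Cd163 at -0.38 among the macrophage markers, Fabp4 at 0.39 and Lep at 1.68 among the adipocyte markers (0.10 to 0.59 and 0.94 to 3.05 with single libraries left out, lowest without knockout 1 and knockout 4 and highest without control 4, where Lep was called), Alas2 at -0.48 and Hba-a1 at -0.16 among the red blood cell markers, and Ackr1 at -0.44 among the genes of activated endothelium, all log2 fold changes. Pf4 of the platelet genes had 0.40. Of 3 satellite cell markers 2 were called higher, Myf5 at 1.44 among them, while Pax7 at 0.28 was not. Of the 7 muscle fibre genes 5 were called lower and 1 higher, from Mb, the oxygen store myoglobin, at -3.15 to Myh1, a fast myosin, at 1.15.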

How the data were processed

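Polyadenylated RNA of QF muscle was sequenced from 4 knockout and 4 control mice. The deposited raw counts per gene, and FPKM values derived by the authors from them, came per the labels and the study's methods from STAR 2.5.4b alignments to GRCm38 after bcl2fastq 2.20.0.422 and cutadapt. The authors dropped genes with few reads, and the lowest total here was 51 counts. The deposited log2 fold changes and p-values are the authors' DESeq2 1.32.0 output and were not used. The FPKM values served only as an alternative measure of level.

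All 14012 genes were fitted in R 4.3.3 with edgeR 4.0.16 (glmQLFit and glmQLFTest, TMM factors, the label as the only term) and adjusted by Benjamini-Hochberg, with a threshold of 0.01. CPM values use TMM-scaled library sizes, and log2 CPM a prior count of 2. Genes compared for likeness had a mean of at least 50 counts. Named genes were all members, every VEGF and angiopoietin gene, and of each other list the genes with the lowest and highest log2 fold change among those with a mean of at least 50 counts in the higher group. A few listed genes are not reported here. Other named genes are said to be chosen after their values were seen. The members and lists were chosen with earlier results of these data known. Alternatives covered scaling, abundant genes, low-count filters, a robust fit, DESeq2 1.42.0, another threshold, a replicate block and each library left out. The procedure was tested on simulated data in which few genes were changed, equally in both directions. It called 56 of 100 genes with a log2 change of 1, 8 of 100 with a change of 0.5 and 1 of 13754 unchanged genes. A gene that was not called may therefore still have changed by such an amount. With so few changed genes, the simulation did not test the choice of scaling. Promoters came from RefSeq (GRCm38.p6), where Pecam1, Cdh5 and Esam were not matched. Replicate libraries differed by more than counting noise. Each SE was derived from the log2 fold change and the F statistic of the fit. The 95% intervals are a normal approximation around the log2 fold change, and are narrower than the p-values of the test imply for so few mice.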

Additional observations from a re-analysis of the deposited data

Results flagged for a closer look

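Knockout library 3 had 26.3 CPM of Kdr, where the other 3 knockout libraries had 37.9 to 38.3, a gap that took 0.967 of the range of the group. The same library had 34.6 CPM of Eng, where the others had 36.7 to 36.9, a gap of 0.883 of the range. That range was small, with a coefficient of variation over the knockouts of 3.02% for Eng against 16.8% for Kdr. Both gaps were above the 95% critical value of Dixon's test for 4 samples. In all, 32 groups of 4 were examined and 2 stood out, and chance alone gives about 1 in 20. Without knockout library 3, the log2 fold change under TMM was -0.73 for Kdr (adjusted p = 7.57e-05, with a range of 1.41e-10 to 0.405 over its alternatives) and -0.77 for Eng (adjusted p = 0.00151, with a range of 4.42e-09 to 0.557), and both kept the direction and the call of the fit with all 8 libraries.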

How the results depend on the processing

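Scaling by library totals alone changed most. Over all genes it gave 873 lower and 8498 higher, against 2962 and 3303 under TMM. It called 0 of the 9 endothelial members lower against 6, 0 of the 24 other endothelial genes against 12, and of the VEGF and angiopoietin genes 1 lower against 4 and 2 higher against 0. It turned the sign of Vegfa (0.31, adjusted p = 0.00302, in a range of 1.12e-08 to 0.0062 over its alternatives), since it moved the median of all genes to 0.73. Among the other members and the VEGF and angiopoietin genes, Vegfb (0.052), Flt4 (0.15), Pecam1 (0.00066) and Tek (0.031) turned too. So did the uncalled Flt1 (0.30), Esam (0.23), Emcn (0.15), Nrp1 (0.37) and Angpt2 (0.02). Signs also turned for genes named from other lists. Among them were Epas1 (0.23) and Ppargc1a (0.13), both called under TMM, and the uncalled Clec14a (0.43) and Notch1 (0.64). RLE, upper-quartile factors, leaving out the 20 most abundant genes, filterByExpr, a mean count of at least 50, a robust fit and DESeq2 called 6 to 9 members lower and kept Vegfa lower. A threshold of 0.05 called 9 members, 19 other endothelial genes and 6 VEGF or angiopoietin genes lower and 1 of the last higher, with 3848 lower and 4436 higher over all genes. With a mean count of at least 50, 2 of the VEGF and angiopoietin genes were lower, since Vegfc left the table and Flt4 missed the threshold.

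Leaving out 1 library at a time gave 6 to 8 members lower, 6 to 19 other endothelial genes lower and 0 to 1 VEGF or angiopoietin genes higher (Nrp2, without control library 4). Without control library 3 and knockout library 3, lowest in adipocyte markers and chosen after seeing the data, 7 of the 24 other endothelial genes were called. Where not stated, the cause was not tested. The labels do not say that equal replicate numbers pair the samples. Same-numbered libraries 1 to 4 correlated at 0.118, 0.00314, 0.42 and 0.138 in their deviations from the group means. Those numbered 1, 3 and 4 correlated best with their own number and those numbered 2 did not, which does not settle a pairing. With the replicate block, 6 members, 9 other endothelial genes and 4 VEGF or angiopoietin genes were lower and 1 of the last was higher. Among the named genes it gained Nrp1, Nrp2, Cspg4 and Lep and lost Flt4. Precision is limited by 4 mice a group rather than by counts, which for Emcn, the lowest member, were 122 to 255 per library.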
